A study of Mus musculus with 8 samples.

Results

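The 32 genes described here centre on the mitochondrial oxidation of fatty acids and ketone bodies, from carnitine-dependent entry to the release of acetyl-CoA, and include some related genes, such as a carnitine transporter of the cell membrane and a cytosolic enzyme. They were chosen by name: a gene counts as a member when a row of the array carries its symbol and no other, and where several rows did, the brightest was kept. All 32 listed genes had such a row, out of 19938 genes measured. Hearts came from male c57/bl mice aged 12 weeks, 4 with MHC-Plin5 and 4 controls, and their source name says that they were fasted. The MHC-Plin5 transgene raises Plin5, the gene of the lipid droplet protein perilipin 5, in cardiomyocytes (the contracting cells of the heart), and the name points to a myosin heavy chain promoter. How long the mice were fasted and whether controls were littermates is not given in the sources used here. RNA from each heart was measured on 1 Affymetrix whole-transcript array, and levels are log2 values, so a difference of -1 is a halving of the signal. All differences are MHC-Plin5 minus control.

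Long-chain fatty acids are the main fuel of the adult heart. They cross into mitochondria as carnitine esters and pass through a repeated cycle of dehydrogenation, hydration, a second dehydrogenation and thiolysis, each turn of which shortens the chain and frees acetyl-CoA. Electrons from the first dehydrogenation pass to the respiratory chain through the electron transfer flavoprotein, and auxiliary isomerases and reductases handle unsaturated chains. Ketone bodies, which the liver makes during fasting, enter by a short route of their own that also ends in acetyl-CoA.

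Plin5 and the heart identity of the samples were checked first. Plin5 stood at 12.17, 12.69, 12.63 and 12.08 in MHC-Plin5 1 to 4 and at 8.92, 8.87, 9.04 and 8.58 in control 1 to 4, with no overlap. This was 11.7-fold higher in MHC-Plin5 hearts (difference 3.54, SE 0.16, limma adjusted p = 6.9e-07), which checks the labels. The 10 cardiomyocyte markers, such as Myh6 and Tnni3, averaged 13.26 to 13.32 in the control hearts and 13.04 to 13.34 in the MHC-Plin5 hearts, and 0 of them were called. Of these markers 8 had a difference under 0 and 2 over 0 (median -0.11), against 57.5% of all genes under 0. The MHC-Plin5 hearts all lay below the controls in 1 of the 10 and all above in 1, against 996 and 1244 of all 19938 genes. Markers of atrial cells were uneven within both groups, their mean running from 7.77 to 11.02 in control and from 7.72 to 10.80 in MHC-Plin5 hearts. In RNA from bulk heart tissue, fewer cells of a type and less RNA per cell cannot be told apart.

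The median difference was under 0 at each of the 7 steps of the pathway, and 4 of the steps held a gene called lower in MHC-Plin5 hearts. Acaa2, the thiolase that ends the cycle, showed the largest fall among the members, at 1.95-fold lower. The auxiliary enzymes Ech1, Eci1, Decr1 and Eci2 were 1.74, 1.70, 1.6 and 1.51-fold lower. Acat1, the last enzyme of ketone use, was 1.54-fold lower, and Mlycd, which removes the inhibitor malonyl-CoA, 1.40-fold lower. These 7 of 32 members were called lower (limma adjusted p under 0.05 over all genes), or 21.9%, against 1.17% of all genes, and 0 were called higher, against 2.08% of all genes. A difference under 0 was found in 31 of the 32, the exception being Bdh1, and in 57.5% of all genes. The median difference was -0.45 over the members and -0.03 over all genes.

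The 4 MHC-Plin5 hearts lay below all 4 control hearts in 19 of the 32 members, or 59.4%, against 5.0% of all genes. Besides the 7 called genes these were Crat, Acadvl, Acadm, Acad11, Echs1, Hadha, Hadh, Hsd17b10, Hadhb, Etfb, Etfdh and Echdc2. At an adjusted p under 0.1 the number of lower members was 16 of 32, against 2.32% of all genes. The count at 0.05 rests on single hearts. Leaving out control 1 or control 2 gave 2 calls, control 3 gave 1 and control 4 gave 4. Among the MHC-Plin5 hearts, leaving out the first gave 7, the second 2, the third 3 and the fourth 16. Across these 8 fits the median difference moved between -0.37 and -0.51, and all genes called, in either direction, numbered 233 to 1174. Other settings also ended calls: median centring of the arrays that of Acat1 (adjusted p = 0.0580), the array median as a covariate those of Acat1, Eci1 and Mlycd, leaving out both control 2 and MHC-Plin5 4 those of Acat1 (adjusted p = 0.103) and Eci2 (adjusted p = 0.0536), and atrial markers as a covariate those of Eci1 and Mlycd.

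**Figure D1:**
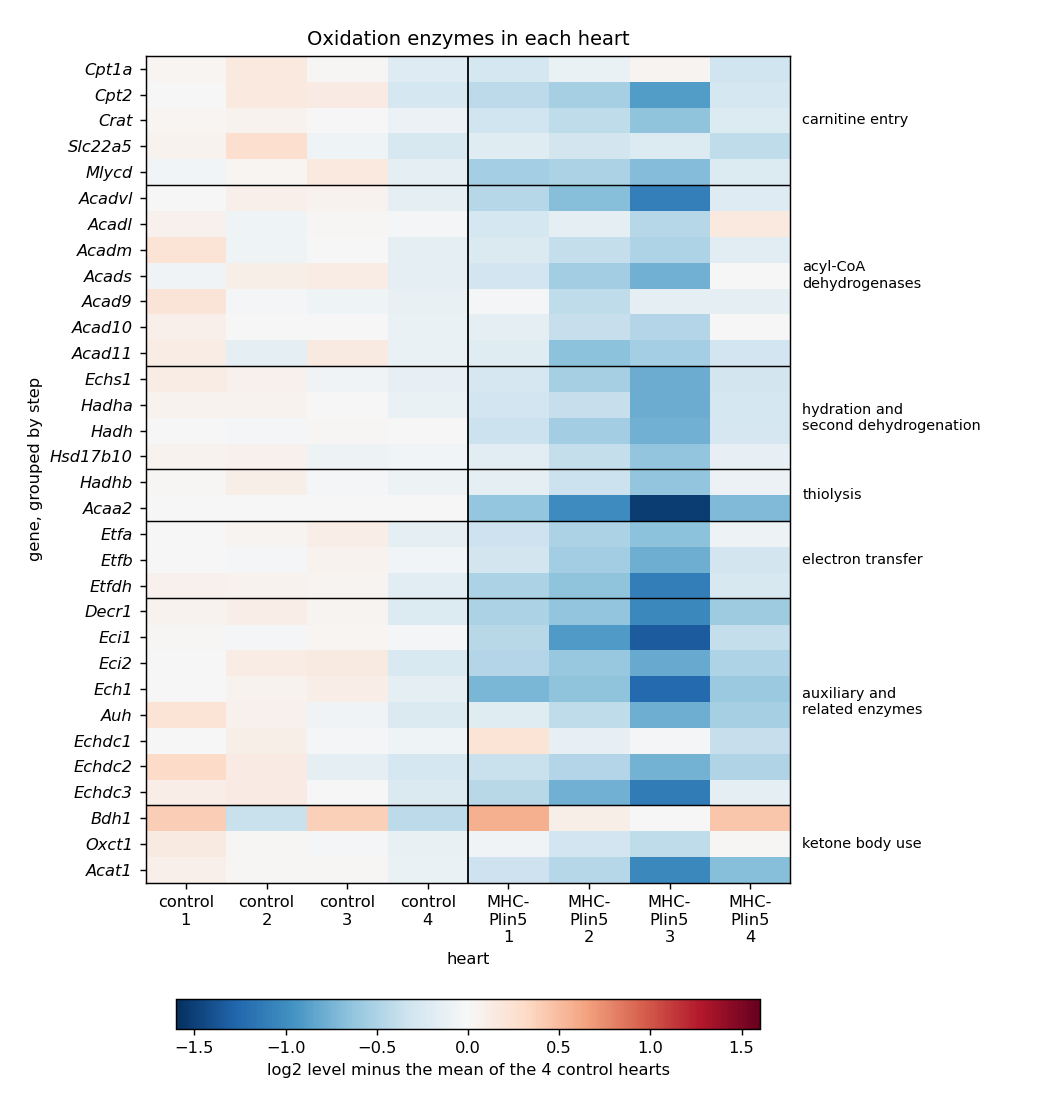
Log2 level of each of the 32 enzymes (rows, grouped by step) in each of the 8 hearts (columns), minus the mean of the 4 control hearts for that gene; blue is lower and red is higher. Blue fills most MHC-Plin5 cells and is deepest in MHC-Plin5 3, while Bdh1 and Echdc1 hold red cells.

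The depth of the decrease differed from heart to heart. The median of the members' deviations from their control means was -0.31, -0.49, -0.76 and -0.28 in MHC-Plin5 1 to 4, and 0.06, 0.06, 0.01 and -0.14 in control 1 to 4. MHC-Plin5 3 was the lowest of the MHC-Plin5 hearts in 27 members, and MHC-Plin5 4 the highest in 19. The pair of hearts with the higher Plin5 levels, MHC-Plin5 2 and 3, was also the pair with the lower medians, which is a description of 4 hearts with no test. The SD among MHC-Plin5 hearts exceeded that among control hearts in 27 of 32 members (84.4%), against 56.2% of all genes, with a median SD of 0.24 against 0.11 for the members.

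Markers of some other cells tended to one side. The 10 endothelial markers did not, with 5 under 0 and 5 over 0 (median -0.02), nor did the 2 red blood cell markers, with 1 each way. In the MHC-Plin5 group 9 of 10 fibroblast markers (median 0.28) had a difference over 0. So did 11 of 12 leukocyte markers (median 0.35), against 8473 of all 19938 genes. Of the leukocyte markers 4 had an unadjusted p under 0.05, against 3300 of all 19938 genes, and both lists had 0 calls. The 9 smooth muscle and pericyte markers ran from -0.45 to 0.62, with 5 under 0 and 4 over 0. Of these 1 was called lower, against 1.17% of all genes. The called marker was Kcnj8, a potassium channel subunit found in pericytes, with a difference of -0.43 (SE 0.10, adjusted p = 0.0377) and no overlap. The pericyte marker Rgs5 also had no overlap and was not called (-0.36, adjusted p = 0.0951). In 2 of the 9, then, the MHC-Plin5 hearts all lay below the controls, against 5.0% of all genes. Pdgfrb, of the same list, differed by 0.04 (adjusted p = 0.905). MHC-Plin5 3 had the highest mean of the 8 hearts over 10 fibroblast markers (10.06, against 9.18 to 9.80 in the others) and over 12 leukocyte markers (8.08, against 7.21 to 7.93). In that heart the mean of the smooth muscle and pericyte markers was the highest at 10.10, but the median of their deviations from control was the lowest at -0.49. Its cardiomyocyte marker mean of 13.04 was the lowest. Without this heart the median difference of the oxidation genes was -0.37, and 31 of 32 were still under 0. When every gene was set relative to the cardiomyocyte markers of its heart the median was also -0.37, with 10 members called lower and 0 higher, and Mlycd lost its call (adjusted p = 0.0591). With the atrial marker mean as a covariate it was -0.43, with 5 called lower. Brown adipocytes are also rich in these enzymes. The 9 measured markers of brown and white adipocytes had 8 differences under 0, a median of -0.29 and 0 calls. Only 2 of the 9 had a mean level of at least 7. Their mean was highest in control 4, at 7.34, against 6.43 to 6.87 in the other controls and 6.30 to 6.64 in MHC-Plin5 hearts. Ucp1, the marker of brown fat, lay between 5.31 and 5.59 in control and between 5.08 and 5.28 in MHC-Plin5 hearts. What part the other cell types had in the enzyme values was not tested beyond these fits.

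**Figure D2:**
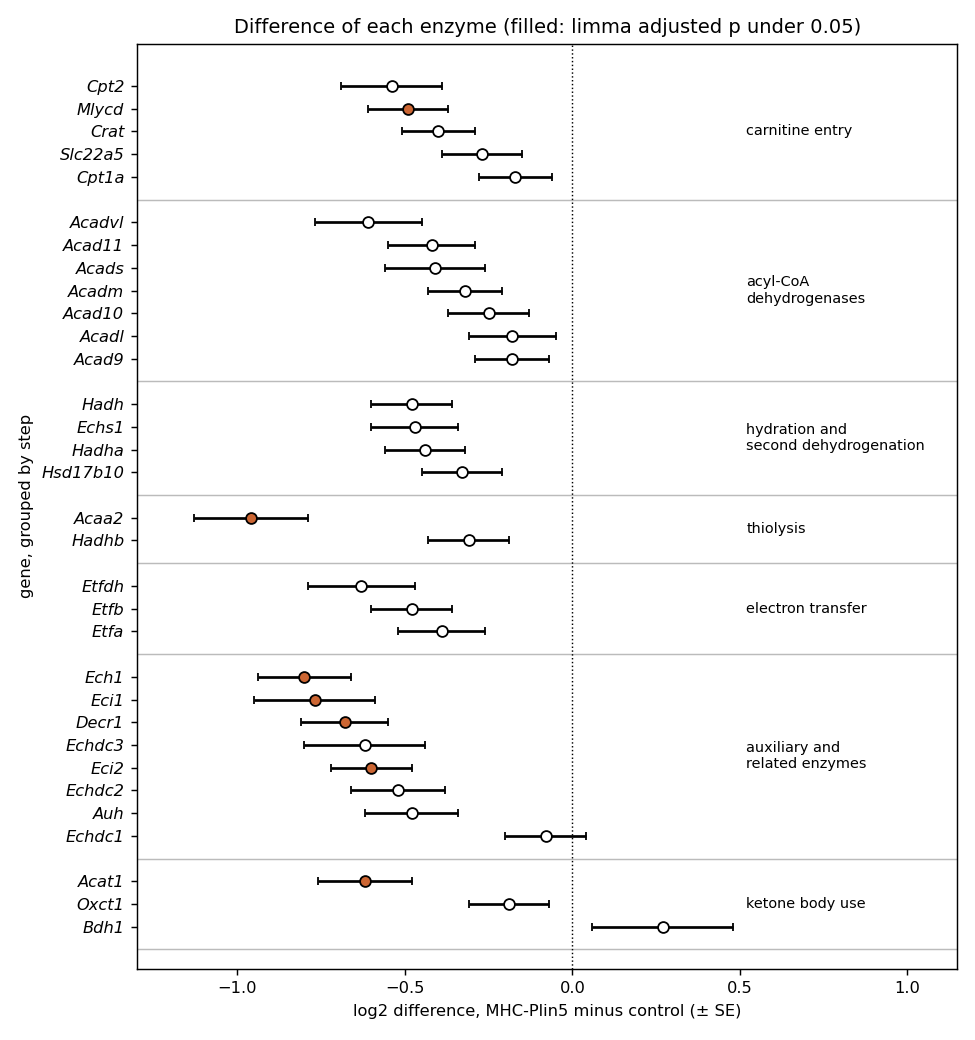
Log2 difference of each enzyme, MHC-Plin5 minus control (horizontal axis, bars ± SE from limma), grouped by step; filled points have an adjusted p under 0.05. Acaa2 lies farthest left at -0.96, 4 of 8 auxiliary and related enzymes are filled, and Bdh1 alone lies right of 0.

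Entry into mitochondria depends on carnitine, which Slc22a5 carries into the cell. Cpt1a, the liver-type form of the outer-membrane transferase that also occurs in heart, Cpt2, the inner-membrane transferase, and Crat, which acts on acetyl groups, move acyl groups between CoA and carnitine. Of these 5 genes with Mlycd, 1 was called lower and 0 higher, against 1.17% and 2.08% of all genes, with a median of -0.40. Mlycd, malonyl-CoA decarboxylase, read 8.33, 8.40, 8.53 and 8.23 in control hearts. It read 7.83, 7.87, 7.68 and 8.15 in the MHC-Plin5 hearts, so MHC-Plin5 4 came close to the lowest control. Its difference of -0.49 (SE 0.12, adjusted p = 0.0498) was at the threshold and was called without MHC-Plin5 4 but in none of the other 7 fits that left out a heart. Cpt2 (-0.54, SE 0.15, adjusted p = 0.0806) and Crat (-0.40, SE 0.11, adjusted p = 0.0764) were not called. Slc22a5 had a difference of -0.27 and Cpt1a of -0.17, and their groups overlapped. Among the MHC-Plin5 hearts Cpt1a was highest in MHC-Plin5 3, at 9.92, within the control range of 9.67 to 10.03. Cpt1b, another form of the outer-membrane transferase, was not measured here, since its row names several genes.

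The acyl-CoA dehydrogenases open each turn of the cycle and are named by the chain length they prefer: Acadvl for very long, Acadl for long, Acadm for medium and Acads for short chains. None of the 7 was called, and their median was -0.32. An unadjusted p under 0.05 was found in 4 of the 7, against 3300 of all 19938 genes. Acadvl had the smallest p, with 11.39, 11.47, 11.45 and 11.24 in control hearts. In MHC-Plin5 hearts it measured 10.93, 10.71, 10.30 and 11.18, all below the controls but with MHC-Plin5 4 only just so, and the difference was -0.61 (SE 0.16, adjusted p = 0.0712). It was called without MHC-Plin5 4 (adjusted p = 0.0171). Acads differed by -0.41 and Acadm by -0.32, with adjusted p of 0.199 and 0.164. Acadl differed by -0.18 (adjusted p = 0.538), and its level in MHC-Plin5 4, 12.47, was the highest of the 8 hearts. Acad11, a related dehydrogenase of longer chains, had -0.42 (adjusted p = 0.105). Acad10, a family member of low signal, had -0.25, and Acad9, which also serves to assemble respiratory complex I, had -0.18.

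Hydration and the second dehydrogenation are carried out by Echs1 and Hadh on shorter chains and by Hadha, the alpha subunit of the trifunctional protein, on long chains. Hsd17b10 acts mainly on branched-chain and steroid substrates. In all 4 the MHC-Plin5 hearts lay below the control hearts, against 5.0% of all genes. Yet 0 were called, against 1.17% of all genes called lower, and the differences ran from -0.48 to -0.33. Hadh was tight in control hearts at 13.13, 13.11, 13.15 and 13.13. Its MHC-Plin5 values were 12.79, 12.58, 12.36 and 12.86, a difference of -0.48 (SE 0.12) whose adjusted p of 0.0504 missed the threshold. Echs1 had -0.47 (adjusted p = 0.0804), Hadha -0.44 (adjusted p = 0.0867) and Hsd17b10 -0.33 (adjusted p = 0.186).

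Thiolysis is shared between Hadhb, the beta subunit of the trifunctional protein, and Acaa2, which takes medium and short chains. Acaa2 stood at 13.05, 13.06, 13.05 and 13.04 in the control hearts, which were nearly level. The MHC-Plin5 hearts read 12.43, 12.04, 11.53 and 12.34, all lower than every control. The means were 13.05 ± 0.01 and 12.09 ± 0.41 (SD, n = 4 each). The difference of -0.96 (SE 0.17, adjusted p = 0.0136) kept its call in each of the 8 fits without a heart, with adjusted p of at most 0.0495. Among the members Acaa2 was alone in this. Hadhb had 12.73, 12.81, 12.70 and 12.63 in control and 12.57, 12.37, 12.09 and 12.62 in MHC-Plin5 hearts, a difference of -0.31 (adjusted p = 0.233). A second row of Hadhb on the array gave -0.31, but both carry the same transcript accessions, so it is no independent measurement. Whether the kept row holds signal from similar sequence elsewhere was not tested, which also limits the pair of Acaa2 and Hadhb.

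Hadha and Hadhb lie head to head, and the letters between their start sites are shown because both subunits are transcribed away from this one stretch. RefSeq places 272 bases between the start sites in assembly GRCm38.p6, at chr5:30154981-30155252, with Hadha running on the minus strand and Hadhb on the plus strand. The sequence is that of the plus strand, and capitals mark the GC box GGGCGG, found 2 times, and no CCAAT box or half-site AGGTCA was found on either strand.
Hadha-Hadhb: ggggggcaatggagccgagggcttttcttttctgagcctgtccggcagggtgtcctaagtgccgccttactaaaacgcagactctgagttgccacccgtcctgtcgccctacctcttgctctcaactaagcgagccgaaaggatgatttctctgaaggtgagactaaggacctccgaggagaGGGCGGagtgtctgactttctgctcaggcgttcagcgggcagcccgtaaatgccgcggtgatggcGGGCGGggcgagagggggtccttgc
Hadha itself read 13.09, 13.09, 13.02 and 12.92 in control and 12.72, 12.66, 12.24 and 12.75 in MHC-Plin5 hearts. Both genes were lowest in MHC-Plin5 3 and highest, among the MHC-Plin5 hearts, in MHC-Plin5 4. Acad10 shares its promoter window with Brap, a gene of another function on the opposite strand. Brap was called higher at 0.41 (SE 0.09, adjusted p = 0.0406), while Acad10 was not called at -0.25. Etfdh shares its window with the predicted transcript 4930579G24Rik, which differed by 0.01 (adjusted p = 0.985).

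Electron transfer uses Etfa and Etfb, the subunits of the flavoprotein, and Etfdh, which passes the electrons to ubiquinone. Of the 3 genes 0 were called, against 1.17% of all genes called lower and 2.08% higher. Their differences were -0.39, -0.48 and -0.63. Etfb had the smallest p, and its control values were 13.00, 12.97, 13.04 and 12.95. The MHC-Plin5 values of 12.69, 12.43, 12.21 and 12.70 were all lower, with an SE of 0.12 and an adjusted p of 0.0548. Etfdh had an adjusted p of 0.0630 and Etfa of 0.138, and the Etfa groups overlapped through MHC-Plin5 4 at 11.53 and control 4 at 11.46.

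The auxiliary and related enzymes held the most calls of any step, with 4 of 8 lower and 0 higher, against 1.17% and 2.08% of all genes. Their median was -0.61. This step also has the most genes, and in thiolysis 1 of 2 was called. Ech1, which shifts double bonds of unsaturated chains, read 12.82, 12.88, 12.93 and 12.68 in control hearts. In MHC-Plin5 hearts it read 12.10, 12.19, 11.59 and 12.23, and the difference was -0.80 (SE 0.14, adjusted p = 0.0140). Eci1 and Eci2 are enoyl-CoA isomerases, the second of which also occurs in peroxisomes. Eci1 measured 11.19, 11.13, 11.20 and 11.15 in control hearts. Its values of 10.72, 10.26, 9.83 and 10.79 in MHC-Plin5 hearts spread more than those of any other member (SD 0.45), with a difference of -0.77 (SE 0.18, adjusted p = 0.0482).

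Eci2 had control values of 10.45, 10.58, 10.60 and 10.21 and MHC-Plin5 values of 9.99, 9.85, 9.65 and 9.96. The difference was -0.60 (SE 0.12, adjusted p = 0.0232), with less spread than in Eci1, though signal from close copies of Eci2 may be included. Decr1, the reductase of conjugated double bonds, read 11.66, 11.71, 11.65 and 11.39 in control hearts. In MHC-Plin5 hearts it stood at 11.10, 10.97, 10.57 and 11.03, with a difference of -0.68 (SE 0.13, adjusted p = 0.0193). Single hearts decided some of these calls: Ech1 lost its call without control 3 (adjusted p = 0.0553). Decr1 lost it without control 1, 2 or 3 or MHC-Plin5 2, Eci2 also without MHC-Plin5 3, and Eci1 without any single heart except MHC-Plin5 1 or 4, with adjusted p of at most 0.146.

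The other 4 genes of this step are related enzymes of the crotonase fold and were not called. Echdc3 differed by -0.62 (adjusted p = 0.101), Echdc2 by -0.52 (adjusted p = 0.0792) and Auh, a hydratase of leucine breakdown that also binds RNA, by -0.48 (adjusted p = 0.101). Echdc1, a cytosolic enzyme that removes a side product of fatty acid synthesis, differed by -0.08 (adjusted p = 0.821), and its sign turned to 0.02 without MHC-Plin5 4 and to 0.01 relative to the cardiomyocyte markers.

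**Figure D3:**
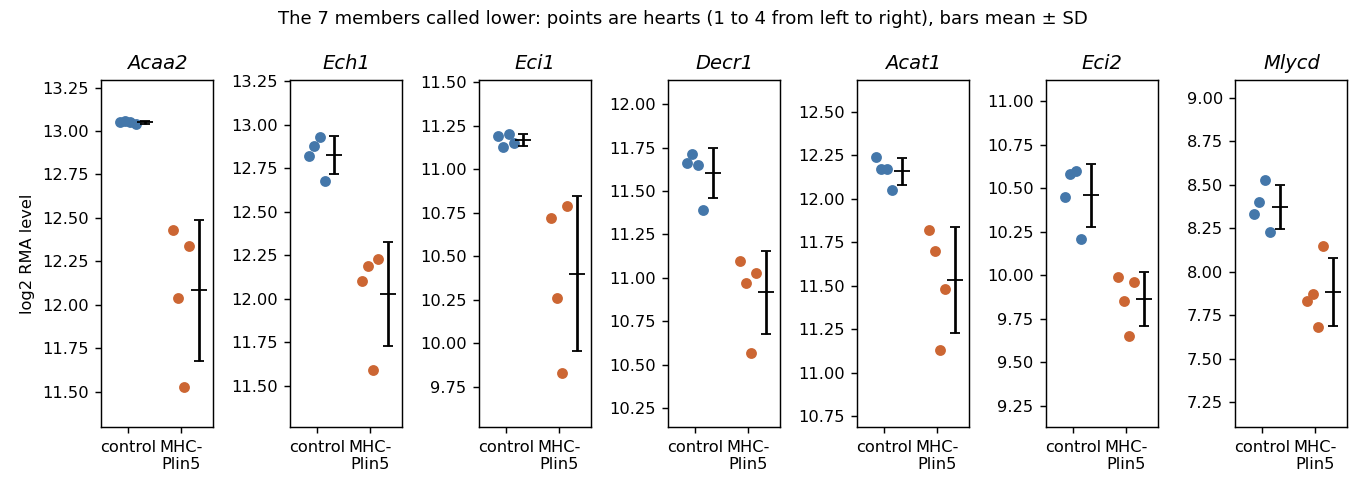
Log2 level (vertical axis, each panel spanning 2 log2 units) of the 7 called enzymes in control (blue) and MHC-Plin5 (orange) hearts; points are hearts 1 to 4 from left to right, and bars give mean ± SD (n = 4 each). No MHC-Plin5 point reaches a control point, and the third orange point is the lowest in each panel.

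Ketone use runs from Bdh1, which oxidises hydroxybutyrate, through Oxct1, which activates acetoacetate, to the thiolase Acat1. The 3 genes did not share a direction. Acat1 had 12.24, 12.17, 12.17 and 12.05 in control and 11.82, 11.70, 11.13 and 11.48 in MHC-Plin5 hearts. Its difference was -0.62 (SE 0.14, adjusted p = 0.0380), and it was called without MHC-Plin5 1 and in none of the other fits that left out a heart, with adjusted p of at most 0.119. Oxct1 was not called (-0.19, SE 0.12, adjusted p = 0.475). Bdh1 is shown heart by heart because it was the one member above 0: control hearts read 10.53, 9.78, 10.51 and 9.71, and MHC-Plin5 hearts 10.70, 10.22, 10.13 and 10.58. The controls split into a higher and a lower pair, and the difference of 0.27 (SE 0.21, adjusted p = 0.581) was within this spread.

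To ask whether enzymes of the same or a neighbouring step changed unequally, the log2 levels of 2 genes were subtracted within each heart for 9 pairs. The groups were compared by exact two-sided permutation, where 4 against 4 hearts cannot give a p below 0.0286. The pairs were chosen with earlier results of these data known, so their p-values describe the pairs and do not measure chance. Acaa2 minus Hadhb was 0.32, 0.25, 0.35 and 0.40 in the controls and -0.14, -0.33, -0.56 and -0.28 in MHC-Plin5 hearts, where only the shift between groups has a meaning, since probes differ in brightness. This change of -0.66 (SE 0.09) reached the smallest p, with an adjusted value of 0.0514 over the 9 pairs. Acadl moved against Acadvl by 0.43 (SE 0.11), Decr1 against Acadm by -0.36 (SE 0.10), Etfdh against Etfa by -0.23 (SE 0.08) and Cpt2 against Slc25a20, the carnitine carrier from outside the 32 genes, by 0.20 (SE 0.05). In each of these 5 pairs the groups did not overlap, the exact p was 0.0286 and the adjusted value 0.0514, so 0 of 9 passed 0.05. With 5 pairs at the smallest p none could pass. The adjusted values here and in the runs that left out a heart depend on how many of the 9 pairs reached that p. Ech1 against Echs1 changed by -0.33 (SE 0.10, exact p = 0.0571) and Oxct1 against Bdh1 by -0.46 (SE 0.20, exact p = 0.0857). The change was 0.08 (SE 0.14) for Acadm against Acads and -0.04 (SE 0.06) for Hadh against Hadha, with exact p of 0.571 and 0.543. Without MHC-Plin5 2 the first 5 pairs and Ech1 against Echs1 had an adjusted exact p of 0.0429. This was 1 of 8 runs that each left out a heart, and not every run did so. Without control 1, for example, Acadl against Acadvl did not pass 0.05.

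**Figure D4:**
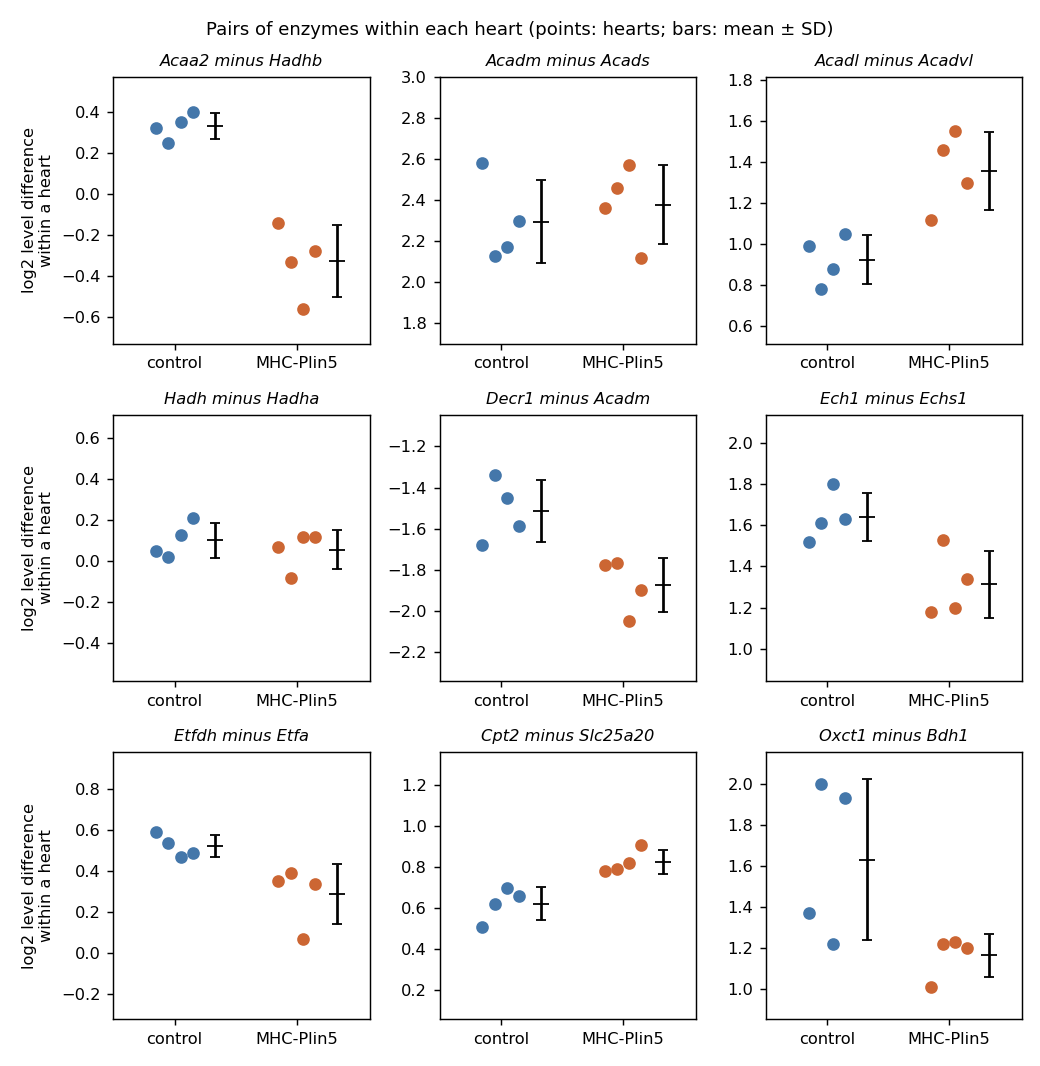
Difference in log2 level between 2 enzymes within the same heart (vertical axis, each panel spanning 1.3 log2 units) for 9 pairs, in control (blue) and MHC-Plin5 (orange) hearts, with mean ± SD (n = 4 each). Acaa2 minus Hadhb lies between 0.25 and 0.40 in controls and between -0.56 and -0.14 in MHC-Plin5 hearts, and Hadh minus Hadha overlaps.

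Genes next to the pathway were taken from lists of 65 measured genes. Of these, 11 were called lower and 0 higher, against 1.17% and 2.08% of all genes. Among 25 other genes of fatty acid and ketone oxidation, 5 were lower with a median of -0.11. They were Mmut (-0.78) and Pccb (-0.65), which pass the end of odd chains into the citric acid cycle, Slc25a20 (-0.74), the CoA hydrolase Nudt7 (-0.60) and Etfbkmt (-0.67), which methylates the electron transfer flavoprotein. Pccb (SE 0.11, adjusted p = 0.0108) was called in all 8 of those fits. Not called were Pcca (-0.46, adjusted p = 0.0855), Acot9 (0.41, adjusted p = 0.136) and Sirt3 (-0.39, adjusted p = 0.253).

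In the list of branched-chain and other acyl-CoA enzymes 6 of 17 were called lower, against 1.17% of all genes. All 17 had a difference under 0, against 57.5% of all genes, and the median was -0.53. The called genes were the dehydrogenases Gcdh (-0.89) of lysine and tryptophan, Ivd (-0.87) of leucine and Acadsb (-0.53) of isoleucine breakdown, with Bckdhb (-0.84), Mccc2 (-0.83) and Hibadh (-0.42). Acad8, Dbt and Aldh6a1 were not called, with differences of -0.50, -0.53 and -0.55. The list of 23 regulators had 0 calls and a median of -0.10. Of these 23 genes, 4 had an unadjusted p under 0.05, a share close to that of all genes (3300 of 19938). The smallest p belonged to Ppargc1a, the coactivator PGC-1 alpha (-0.61, SE 0.17, adjusted p = 0.0855), followed by Rxrg (-0.77, adjusted p = 0.149) and Lpin1 (-0.88, adjusted p = 0.251), which spread widely among the MHC-Plin5 hearts (SD 0.67 and 0.96). The calls in these lists moved with single hearts. Of the 65 genes, 1 was called lower when control 1, control 3 or MHC-Plin5 2 was left out. Leaving out control 2 gave 2 calls, MHC-Plin5 3 gave 4, control 4 gave 6 and MHC-Plin5 4 gave 19. The called genes Etfbkmt (adjusted p = 0.0487) and Hibadh (adjusted p = 0.0482) each had 2 rows on the array, of which the brightest was kept. With the mean over the rows of each gene, 9 of the 65 were called lower.

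**Figure D5:**
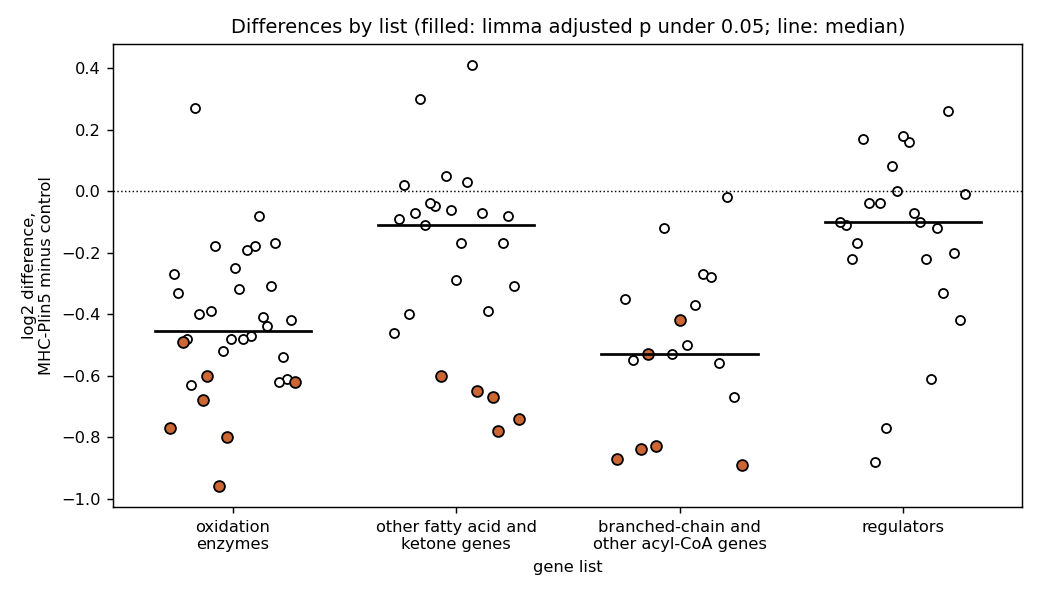
Log2 difference, MHC-Plin5 minus control (vertical axis), of each gene in 4 lists (horizontal axis; sideways position within a list has no meaning); filled points have a limma adjusted p under 0.05 and lines mark medians. The medians are -0.45 for the oxidation enzymes, -0.11 for other fatty acid and ketone genes, -0.53 for branched-chain and other acyl-CoA genes and -0.10 for regulators, which hold no filled point.

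Genes of this pathway are known targets of nuclear receptors of the PPAR and ERR families, so promoter letters were searched. RefSeq windows of GRCm38.p6, from 250 bases before to 50 after a start site, were at hand for 27 of the 32 members and not for Acaa2, Decr1, Acat1, Crat and Acad9, which were not searched. The half-site AGGTCA occurred on either strand in 5 of 27 (18.5%), against 18.1% of 27025 genes with a window and 14.9% of 7193 genes with a mean level of at least 7. Its direct repeat AGGTCANAGGTCA, the ERR element TCAAGGTCA and the element TGACGTCA, where the first and second contain the half-site, had 0 matches among the members, against 0.0481%, 0.466% and 2.03% of genes. The GC box GGGCGG was in 21 of 27 (77.8%), against 38.2% of all genes and 71.7% of those with a mean of at least 7. CCAAT was in 10 of 27 (37.0%), against 41.1%. The 5 half-sites are printed as the receptor letters found in these 27 windows, on the gene's own strand with the match in capitals, where TGACCT is the half-site read from the other strand.
Acadm, chr3:153944875-153944893, minus strand: gTGACCTtcgggctccggt
Acadvl, chr11:70015498-70015527, minus strand: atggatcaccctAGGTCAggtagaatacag
Cpt1a, chr19:3323195-3323224, plus strand: cagtttccttacTGACCTcctccccgcagc
Echdc3, chr2:6213163-6213192, minus strand: agtttcattctgTGACCTacacccagggca
Echs1, chr7:140116487-140116516, minus strand: accagcccgctcAGGTCAcgggtccacccc
The matches begin 249 bases before the start site in Acadm, 87 in Acadvl, 94 in Cpt1a, 186 in Echdc3 and 83 in Echs1. The log2 differences of these genes were, in the same order, -0.32, -0.61, -0.17, -0.62 and -0.47. A match is a run of letters, and binding was not measured here.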

How the data were processed

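The deposited values are log2 levels, and the submitters' processing notes name RMA and Affymetrix Expression Console. Version and settings: not given in the sources used here. Scan dates and scanner files were not used here, so no batch was tested. Array medians over 35556 rows were 5.99 to 6.04 in 6 hearts, 6.24 in control 2 and 6.18 in MHC-Plin5 4. A platform annotation gave 1 symbol to 21789 rows, and the brightest row stood for each of 19938 genes. The effect of genotype was fitted in limma 3.58.1 (lmFit, then eBayes; R 4.3.3), two-sided, with Benjamini-Hochberg adjustment over all 19938 genes, and an adjusted p under 0.05 made a call. Pairs of genes were compared by exact permutation (Python 3.11.15). Each group has 4 arrays, which limits precision, and hearts count as separate animals because the series text counts mice. The fit was checked on simulated data.

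The members, the lists and the pairs were chosen with earlier results of these data known. All members are named. Values of each heart are given for called members and for the smallest p of steps without one. Those of Hadha, Hadhb and Bdh1, single values of Cpt1a, Acadl and Etfa, and the markers Kcnj8, Rgs5, Pdgfrb and Ucp1 were added after they were seen. Of the neighbouring lists, called genes and up to 3 more by p are named. A further planned pair, Cpt1a with Cpt1b, was not run, since the Cpt1b row names several genes. GC and CCAAT boxes were added to the planned motifs.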

Additional observations from a re-analysis of the deposited data

Results flagged for a closer look

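In 64 groups of 4 values (32 members, control and MHC-Plin5 hearts), 2 held a heart far from the other 3, where chance alone flags about 1 in 20. Both were control 4. Etfdh was 11.95 there, against 12.17 to 12.20 in the other control hearts, and the gap was 0.903 of the group's range. Decr1 was 11.39 there, against 11.65 to 11.71, and the gap was 0.839 of the range. Without control 4 Decr1 was still called lower. Control 4 also had the highest atrial marker mean of the 8 hearts, 11.02, and the part of this in both values was not tested.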

How the results depend on the processing

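The median difference over the members stayed between -0.37 and -0.51 in every alternative run, within the spread between hearts. The number of members called lower was less stable. From 7 it moved to 13 with a filter at a mean of 7, 14 after quantile normalization, 12 with an intensity trend, 15 with a trend and robust variances, 19 with array weights and 4 with the array median as a covariate. It was 1 to 16 when a heart was left out, 16 at an adjusted p under 0.1 and 0 at 0.01. With the heart number as a replicate block it was 4, without Eci1, Eci2 and Mlycd, but same-numbered hearts had deviations correlated at 0.187, 0.025, -0.107 and -0.040 over genes, so the numbers were not taken to pair hearts. No alternative called a member higher. The 11 lower genes of the neighbouring lists became 21 with array weights, 7 with the array median as a covariate, 6 with atrial markers as a covariate (chosen after seeing the data), 1 to 19 with a heart left out and 0 at 0.01. The sign turned for Echdc1 at 0.05 without control 2 and MHC-Plin5 4, at 0.02 without MHC-Plin5 4 (-0.18 to 0.02 with a heart left out) and at 0.01 relative to cardiomyocyte markers (also chosen after seeing the data), and for the pair Hadh and Hadha at 0.000134 without MHC-Plin5 2 (-0.07 to 0.000134 with a heart left out). The causes were not tested. Signal over background could not be judged from the deposited values.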
